A study of Rattus norvegicus with 96 samples.

Results

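The central nucleus of the amygdala (CeA) of rats that had drunk no ethanol was compared between 6 h and 1 h on the study's clock of hours since the last drinking session. The 11 arrays were those titled for this nucleus and for water, 5 at 6 h and 6 at 1 h, of 96 arrays in the whole series. All came from P rats, which are selectively bred to prefer alcohol, and each held total RNA amplified in 2 cycles and hybridised to an Affymetrix rat expression array. Water rats had no ethanol, and their hour is the hour given to the ethanol rats of the series, whose drinking the series title calls binge drinking. The same hours were covered by 10 ethanol arrays at 6 h and 11 at 1 h in the CeA, and by 5 water arrays at 6 h and 7 at 1 h in the shell of the nucleus accumbens. The labels give neither the clock time of sampling nor the sex or age of the rats, and do not say whether each array held 1 rat or a pool, so p-values measure the spread between arrays.

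Genes of the circadian clock are described first. In that clock, the activators Clock and Bmal1 bind E-box sequences and switch on the period genes Per1, Per2 and Per3, the cryptochromes Cry1 and Cry2, the repressors Nr1d1 and Nr1d2 (REV-ERB alpha and beta) and the output factors Dbp, Tef and Hlf. Period and cryptochrome proteins then hold back the activators, and REV-ERB proteins hold back Bmal1, so transcript levels rise and fall once a day in most tissues, the amygdala included. Dbp, Tef and Hlf act through a second element, the D-box, for which Nfil3 competes.

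No probe set passed the test in water rats: 0 of 18625 had an adjusted p under 0.05 in limma (Benjamini-Hochberg adjustment, percent called 0), and the smallest adjusted p was 0.789. At an unadjusted p under 0.05 there were 847 probe sets, 566 of them higher at 6 h (3.04% of those tested) and 281 lower (1.51%). Whatever their p, 57.7% of all probe sets tested were higher at 6 h. The clock repressor gene Nr1d1 and the period gene Per2 had the smallest p-values among genes lower at 6 h, and the vessel receptor gene Flt1, the protease inhibitor gene Serpinb9 and the chaperone gene Hspa5 the smallest among genes higher at 6 h. When the changes of water and ethanol rats were averaged, over 32 arrays, 10 probe sets passed (0.0537% of those tested), 5 of them lower at 6 h (Nr1d1, Nr1d2 and 3 probe sets without a symbol) and 5 higher (Klhdc7a, Mmp14, Flt1, Serpinb9 and Hspa5). This fit was added after seeing the data. Nr1d1, Nr1d2, Mmp14 and the 3 probe sets without a symbol passed in ethanol rats alone, so their passing here is no separate result for water rats. Flt1, Serpinb9, Hspa5 and Klhdc7a were named for small p-values in the same water arrays, and passed in neither treatment alone.

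The promoters of Nr1d1, Per2 and Hspa5 are shown because these genes lead the clock and chaperone results, and because each window holds a known element of its pathway. The windows run from 250 bases before to 50 after the annotated start and come from RefSeq (GRCr8). Capitals mark the E-box CACGTG in 1 of the 2 windows listed for Nr1d1 (chr10:84229405-84229704, minus strand), the D-box TTATGTAA in Per2 (chr9:99496944-99497243, minus strand) and the endoplasmic reticulum stress element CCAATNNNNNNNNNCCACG in Hspa5 (chr3:38452766-38453065, plus strand), each searched on both strands.
Nr1d1: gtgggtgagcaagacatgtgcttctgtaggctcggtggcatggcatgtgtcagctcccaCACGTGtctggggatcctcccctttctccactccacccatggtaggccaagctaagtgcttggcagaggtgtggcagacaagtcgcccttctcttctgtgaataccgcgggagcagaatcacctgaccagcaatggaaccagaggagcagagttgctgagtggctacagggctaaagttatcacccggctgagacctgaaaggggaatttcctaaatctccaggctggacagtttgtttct
Per2: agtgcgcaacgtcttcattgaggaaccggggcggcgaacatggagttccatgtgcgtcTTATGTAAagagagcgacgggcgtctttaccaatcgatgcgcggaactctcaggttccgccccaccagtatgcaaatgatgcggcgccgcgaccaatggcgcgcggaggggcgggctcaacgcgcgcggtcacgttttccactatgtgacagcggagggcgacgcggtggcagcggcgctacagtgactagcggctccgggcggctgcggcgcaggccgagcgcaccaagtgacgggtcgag
Hspa5: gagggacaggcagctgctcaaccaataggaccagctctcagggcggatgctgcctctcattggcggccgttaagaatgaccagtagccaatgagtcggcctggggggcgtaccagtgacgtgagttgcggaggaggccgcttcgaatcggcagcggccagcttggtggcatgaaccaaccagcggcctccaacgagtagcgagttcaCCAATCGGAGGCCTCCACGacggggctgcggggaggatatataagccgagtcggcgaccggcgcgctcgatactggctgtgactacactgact
An E-box was found in the window of 4 of 18 clock genes with a window, Nr1d1, Tef, Bhlhe40 and Bhlhe41, and in 6.42% of all 33465 windows. The D-box was in 0.893% of all windows. The stress element was in 7 of 16 chaperone and stress genes with a window, Hspa5, Hsp90b1, Calr, Canx, Creld2, Dnajc3 and Xbp1, and in 0.0657% of all windows. A match describes the letters only, and no binding was measured.

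The titles number the water arrays of the CeA from 1 to 17, and along these numbers the hours fall into 4 successive groups, called title runs here. The labels do not say what a title run is, and the runs of ethanol arrays were matched to those of water arrays by their order in the titles. Arrays 16 and 17, both at 6 h, form run 4, which holds no water array at 1 h, whereas runs 1, 2 and 3 each hold 1 array at 6 h and between 1 and 3 at 1 h. The 2 water arrays of run 4 also had the lowest median correlation with the other CeA arrays among the water arrays, 0.982 and 0.985. Ethanol arrays 27 and 30, also of run 4, were about as low, at 0.982 and 0.983. The other ethanol arrays of run 4 lay between 0.988 and 0.990. The water arrays at 6 h ranged from 0.982 to 0.991, against 0.990 to 0.993 in the 1 h arrays (exact two-sided permutation test over 462 arrangements, p = 0.0281, and 0.0844 after adjustment over 3 tests). The log2 difference between 3 prime and 5 prime control probe sets, taken as a sign of RNA integrity, was 2.93 ± 0.572 at 6 h and 2.85 ± 0.526 at 1 h for Gapdh (SD, n = 5 and 6, exact permutation p = 0.814). For beta-actin it was 4.05 ± 0.153 at 6 h and 3.95 ± 0.189 at 1 h (exact permutation p = 0.351). The part of the amplification in 2 cycles in these differences was not tested. With title run as a block 308 probe sets had an unadjusted p under 0.05, without run 4 there were 173, and in both no probe set passed. Leaving out array 16, 17 or 11 lowered the count of 847 to 400, 416 and 499, and leaving out array 13 raised it to 2568. The part of title run in the changes below was not tested beyond these values.

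Among the repressors of the clock, Nr1d1 read 7.98, 7.94, 8.48, 8.16 and 8.13 log2 units in the 5 arrays at 6 h, against a lowest value of 8.09, a median of 8.56 and a highest of 8.74 at 1 h. All 5 arrays at 6 h lay below the mean of the 1 h arrays, and the groups overlapped because 1 array at 1 h was low and array 13 was high. The change was -0.36 ± 0.12 log2 units (SE, limma unadjusted p = 0.00310, adjusted p = 0.789). Within title runs 1, 2 and 3 the difference was -0.65, -0.59 and 0.04, and with run 4 left out the change was -0.37. In ethanol rats the same probe set fell by 0.48 log2 units (limma adjusted p = 0.00388). Over the 3 hours in water rats, Nr1d1 averaged 8.50 ± 0.24 at 1 h, 8.14 ± 0.21 at 6 h and 8.81 ± 0.14 at 24 h (SD, n = 6, 5 and 6).

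Nr1d2, the second REV-ERB gene, read 12.38, 12.40, 12.59, 12.36 and 12.35 at 6 h, against 12.25, 12.66 and 12.81 as lowest, median and highest at 1 h. The 1 h arrays spread more widely than the 6 h arrays and enclosed them. The change was -0.18 ± 0.08 in water rats (limma unadjusted p = 0.0416, adjusted p = 0.789), and in ethanol rats Nr1d2 fell by 0.32 (limma adjusted p = 0.00955). Within title runs 1, 2 and 3 the difference in water rats was 0.01, -0.40 and 0.07. With title run as a block the change was -0.13 ± 0.08, and without run 4 it was -0.14 ± 0.10. A second probe set of Nr1d2 gave -0.17 ± 0.10 in water rats and -0.16 ± 0.07 in ethanol rats. The 3 hours in water rats averaged 12.59 ± 0.24, 12.42 ± 0.10 and 12.72 ± 0.10 at 1, 6 and 24 h.

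Of the period genes, Per2 read 11.04, 10.84, 11.40, 10.51 and 10.54 at 6 h, against 11.03, 11.22 and 11.95 as lowest, median and highest at 1 h. The lowest of these were the run 4 arrays, and 1 of the 5 arrays at 6 h lay above the mean of the 1 h arrays. The change of -0.50 ± 0.15 (limma unadjusted p = 0.00148, adjusted p = 0.789) was -0.34 ± 0.13 with title run as a block and -0.27 ± 0.15 without run 4. A second Per2 probe set gave 0.05 ± 0.08, so the probe sets of this gene differ. Per1 gave -0.23 ± 0.15 in water rats and -0.31 ± 0.11 in ethanol rats, and Per3 gave -0.18 ± 0.15 in water rats and -0.36 ± 0.11 in ethanol rats. Neither passed in either treatment.

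**Figure D1:**
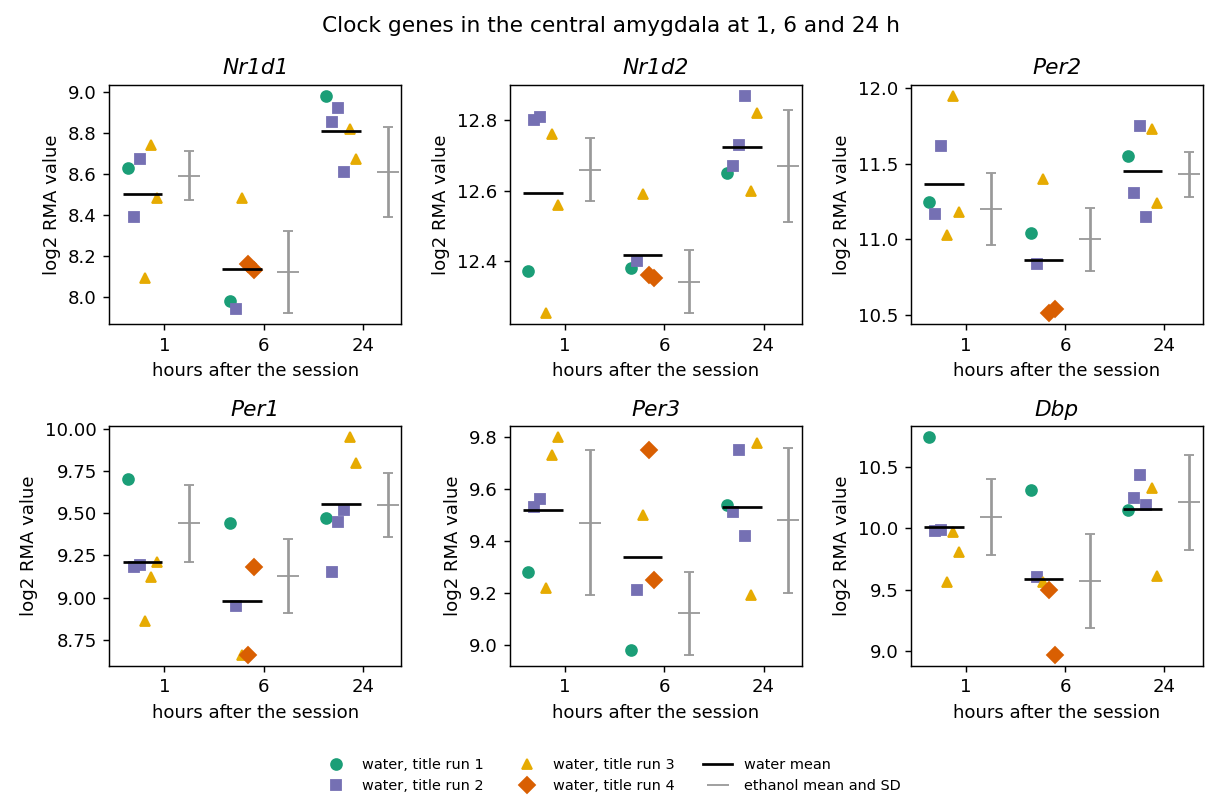
Log2 values of 6 clock genes (y axis) at 1, 6 and 24 h (x axis), with a point for each water array, shaped and coloured by title run, the water mean as a black bar, and the ethanol mean with its SD in grey. Nr1d1 averages 8.50 at 1 h, 8.14 at 6 h and 8.81 at 24 h in water rats, and 8.59, 8.12 and 8.61 in ethanol rats.

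Among the output factors, Dbp read 10.31, 9.60, 9.56, 9.50 and 8.97 at 6 h, against 9.56, 9.97 and 10.74 as lowest, median and highest at 1 h. The groups overlapped, and both their highest arrays belonged to title run 1. The change was -0.42 ± 0.22 in water rats (limma unadjusted p = 0.0605) and -0.52 ± 0.16 in ethanol rats (unadjusted p = 0.00161, adjusted p = 1.00), and in water rats the difference was -0.42, -0.38 and -0.22 within runs 1, 2 and 3, and without run 4 the change was -0.18 ± 0.24. Tef gave -0.13 ± 0.11, Hlf -0.20 ± 0.21 and Nfil3 0.06 ± 0.14 in water rats, and Tef and Hlf turned to 0.05 and 0.04 without run 4. A second Tef probe set gave -0.28 ± 0.15, and -0.19 without run 4.

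The activators gave no clear direction. Bmal1, whose transcript runs opposite to Nr1d1 in most tissues, gave -0.07 ± 0.17 in water rats and 0.25 ± 0.13 in ethanol rats (limma unadjusted p = 0.0531), with 0.08 in water rats once title run was a block. Clock gave -0.06 ± 0.10, and a second Clock probe set gave 0.15 ± 0.12. The paralog of Clock, Npas2, gave -0.67 ± 0.46, and -0.11 without run 4. Npas2 lay between 9.17 and 11.51 in the arrays at 6 h and between 9.97 and 11.67 at 1 h. The nuclear receptor genes Rora and Rorb, which activate Bmal1, gave 0.21 ± 0.20 and 0.14 ± 0.22, with 0.15 and 0.02 without run 4. The E-box repressor gene Bhlhe40 gave -0.44 ± 0.33 and -0.08 without run 4, and Bhlhe41 gave 0.05 ± 0.05 in water rats and -0.15 ± 0.04 in ethanol rats. The deubiquitinase gene Usp2, a clock output, gave -0.12 ± 0.12 and 0.03 without run 4, and a second Usp2 probe set gave -0.22 ± 0.20 and -0.15. The cryptochrome Cry1 gave -0.19 ± 0.14 and Cry2 -0.09 ± 0.11, and the kinase genes Csnk1d and Csnk1e gave 0.08 ± 0.07 and 0.07 ± 0.17. Other Csnk1d probe sets gave -0.01 ± 0.17, -0.09 ± 0.11 and -0.01 ± 0.22.

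As a group, 15 of the 21 clock genes tested were lower at 6 h and 6 higher in water rats. Over all probe sets 57.7% were higher. Of the clock genes 0 passed, and 3 had an unadjusted p under 0.05, all lower, beside 1.51% of all probe sets. Their median change was -0.13, beside 0.03 for all probe sets tested. With title run as a block the median was -0.06, and without run 4 it was within 0.01 of 0. In ethanol rats 16 of the 21 were lower and 5 higher, with a median of -0.14, and 14 of the 21 had the same sign in both treatments.

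Directions were then set beside those of the ethanol rats at the same hours, which share no array with the water rats. In ethanol rats 6 probe sets passed (0.0322% of those tested), and all 6 had the same sign in water rats. The probe set with the smallest p in ethanol rats, 1390223_at, for which the annotation used here lists no gene, read 8.05, 8.13, 8.20, 7.55 and 7.94 at 6 h in water rats, against 8.09, 8.38 and 8.63 as lowest, median and highest at 1 h. Every 6 h array lay below the mean of the 1 h arrays, and the change was -0.40 ± 0.13 (limma unadjusted p = 0.00285, adjusted p = 0.789), against -0.75 ± 0.09 in ethanol rats (adjusted p = 3.59e-06). In water rats it was -0.25 ± 0.14 without run 4. The probe sets 1380306_at and 1392613_at, also without a gene, both gave -0.38 ± 0.20 in water rats, against -0.89 ± 0.15 and -0.90 ± 0.15 in ethanol rats. Mmp14, a membrane-bound matrix metalloproteinase, gave 0.20 ± 0.09 in water rats (limma unadjusted p = 0.0363) and rose by 0.36 ± 0.07 in ethanol rats (adjusted p = 0.00955). The treatment by time test, which compares the changes themselves, had unadjusted p-values of 0.0329, 0.0466 and 0.0423 for the 3 probe sets without a gene and of 0.181 for Mmp14, and none passed.

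Signs were also compared over the whole array. Of all 18625 probe sets tested, 44.3% had the same sign in water and ethanol rats, and the changes correlated at r = -0.161 across probe sets, which are not independent. With title run as a block the share was 51.3% and r was 0.122, and without run 4 they were 46.6% and -0.0617. Among the 22 probe sets with an unadjusted p under 0.001 in ethanol rats, 19 had the same sign in water rats (r = 0.888). Of the 354 with an unadjusted p under 0.05 in ethanol rats, 216 had the same sign in water rats (r = 0.482). Of the 847 with an unadjusted p under 0.05 in water rats, 444 had the same sign in ethanol rats (r = 0.120). Among the 24 genes named below for water rats, 19 had the same sign in ethanol rats. The treatment by time test called 0 of 18625 probe sets in limma (percent called 0, smallest adjusted p = 0.853, 586 at an unadjusted p under 0.05). Its smallest p-values among genes with a symbol belonged to Klhl36, Dlst, Sipa1l3, Fen1, Kdm8 and Sil1. Klhl36 gave 0.21 ± 0.09 in water rats and -0.21 ± 0.07 in ethanol rats, and the flap endonuclease gene Fen1 gave 0.37 ± 0.14 and -0.23 ± 0.10 in the same order. Sipa1l3 gave -0.34 ± 0.13 in water rats and 0.23 ± 0.09 in ethanol rats. In water rats without run 4, Fen1 was 0.18, Sipa1l3 -0.15 and Klhl36 0.16.

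**Figure D2:**
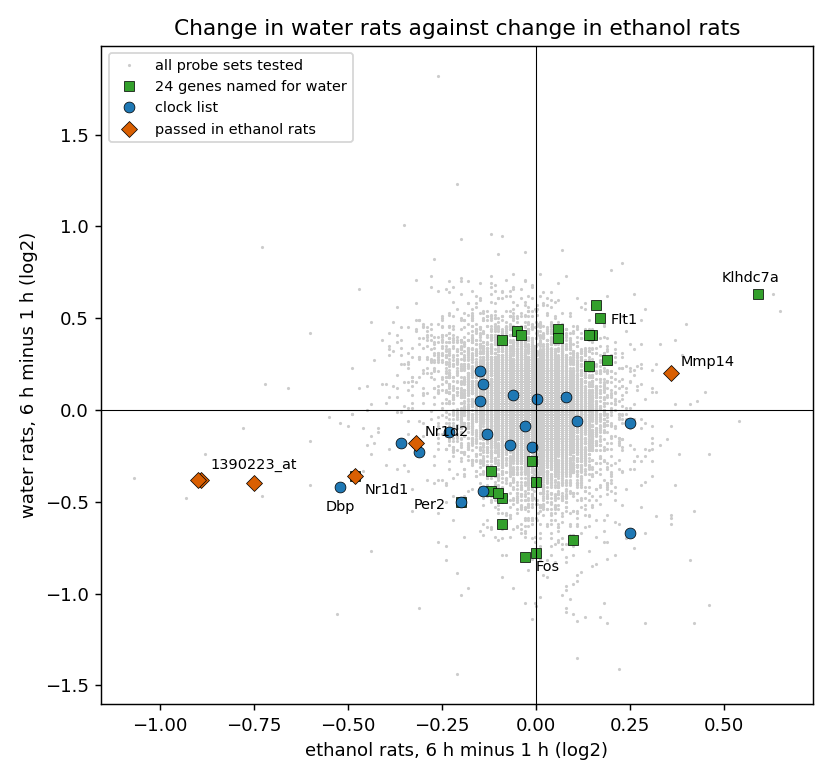
Change between 6 h and 1 h in log2 units in water rats (y axis) against the same change in ethanol rats (x axis), with a grey dot for each of 18625 probe sets and symbols for the 24 genes named for water, the clock list and the 6 probe sets that passed in ethanol rats. All 6 lie in the quadrants of equal sign, while the grey cloud leans the other way (r = -0.161).

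The gene with the smallest p in water rats was Flt1, which encodes a receptor for vascular endothelial growth factor on vessel cells. It read 7.98, 7.68, 7.48, 7.66 and 8.10 at 6 h, against 7.17, 7.26 and 7.43 as lowest, median and highest at 1 h. No array overlapped, and the change was 0.50 ± 0.11 (limma unadjusted p = 5.42e-05, adjusted p = 0.789), with 0.43 ± 0.11 under the title run block and 0.43 ± 0.13 without run 4. The difference was 0.71, 0.26 and 0.29 within runs 1, 2 and 3. In ethanol rats Flt1 gave 0.17 ± 0.08, and with both treatments averaged it rose by 0.33 (limma adjusted p = 0.0366).

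Serpinb9, an inhibitor of granzyme B, read 8.92, 9.31, 8.94, 9.08 and 9.09 at 6 h, against 8.47, 8.69 and 8.79 as lowest, median and highest at 1 h. The groups did not overlap, and the change was 0.41 ± 0.10 (limma unadjusted p = 9.53e-05, adjusted p = 0.789), with 0.40 without run 4. A second Serpinb9 probe set gave 0.20 ± 0.13. Serpinb9 gave 0.15 ± 0.07 in ethanol rats and rose by 0.28 with both treatments averaged (limma adjusted p = 0.0405).

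Klhdc7a had the largest change among the 12 genes named as higher, 0.63 ± 0.18 in water rats (limma unadjusted p = 8.34e-04, adjusted p = 0.789), and 0.59 ± 0.13 in ethanol rats (adjusted p = 0.0678). It read 7.79, 7.67, 7.27, 7.68 and 8.16 at 6 h, against 6.51, 7.09 and 7.59 as lowest, median and highest at 1 h. Every 6 h array was above the mean of the 1 h arrays, with 1 high array at 1 h overlapping them, and by 24 h the mean was 6.75 ± 0.20. The averaged change of 0.61 passed (limma adjusted p = 0.00625).

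The other genes named as higher in water rats were Hspa5, Dlst, Metrnl, Irf8, Phka1, C13h1orf115, Fbxw11, Psmb10 and Aifm3, with changes up to 0.57. Dlst, a subunit of the 2-oxoglutarate dehydrogenase complex, gave 0.38 ± 0.10 in water rats and -0.09 ± 0.07 in ethanol rats. Irf8, a transcription factor of microglia and other myeloid cells, gave 0.57 ± 0.16, and its highest arrays at 6 h were 16 and 17, at 8.11 and 7.77, and it gave 0.37 without run 4. Psmb10, a subunit of the immunoproteasome, gave 0.43 ± 0.13, and Phka1, a regulatory subunit of phosphorylase kinase, gave 0.39 ± 0.11. None of these passed.

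Besides Per2 and Nr1d1, the genes named as lower were Slc28a2, Fjx1, Rtbdn, Pnn, Trmt6, Ints6, Lrch2, Rbm3, Egfl6 and Fos, and none passed. Fos, an immediate early gene switched on by neuronal activity, read 10.51, 10.92, 11.30, 10.38 and 10.66 at 6 h, against a range of 10.83 to 12.21 at 1 h, a change of -0.80 ± 0.30 (limma unadjusted p = 0.0107, adjusted p = 0.789). Its difference was -1.61, -0.61 and -0.08 within runs 1, 2 and 3, and it gave -0.03 ± 0.22 in ethanol rats. Rbm3, an RNA-binding protein induced by cold, gave -0.33 ± 0.12, with values of 12.96, 12.79, 12.94, 12.71 and 12.51 at 6 h, against 12.82 to 13.31 at 1 h, and -0.22 without run 4. The nucleoside transporter gene Slc28a2 gave -0.62 ± 0.20 and -0.58 without run 4. For Pnn, Trmt6, Ints6 and Lrch2 other probe sets of the same gene gave changes closer to 0, between -0.21 and 0.09. Of the 24 genes, chosen for their small p-values, 7 had no overlap between the 6 h and 1 h arrays, and 45 of all probe sets tested had none (0.242%).

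**Figure D3:**
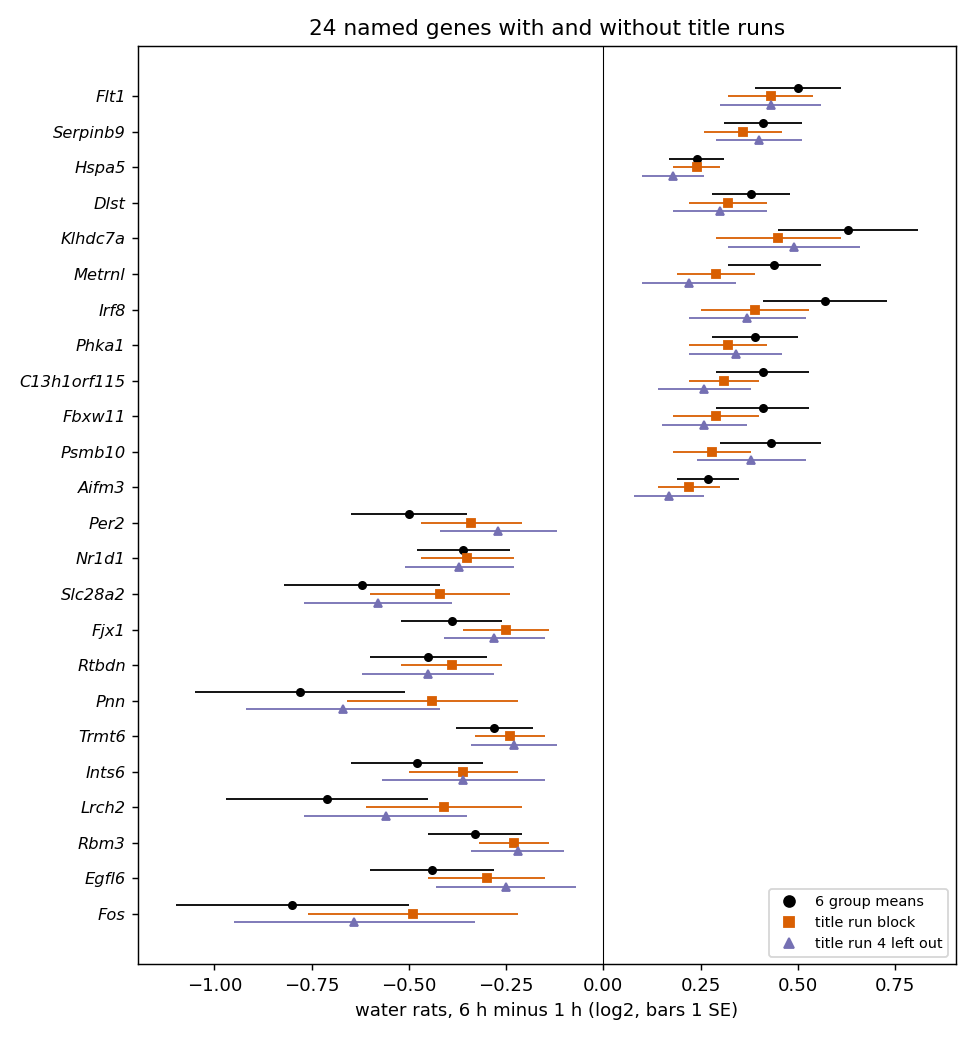
Change between 6 h and 1 h in water rats in log2 units (x axis, bars 1 SE) for the 24 named genes (y axis), from the fit of 6 group means, with title run as a block, and with run 4 left out. All 24 keep their direction in all 3, and Flt1 is 0.50, 0.43 and 0.43.

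Chaperones of the endoplasmic reticulum fold newly made secreted and membrane proteins and are induced together when unfolded protein builds up. Of 19 such chaperone and stress genes tested, 17 were higher at 6 h and 2 lower in water rats. Over all probe sets 57.7% were higher. Among the 19 genes 0 passed, and 6 had an unadjusted p under 0.05, all higher, beside 3.04% of all probe sets. The median change was 0.20, beside 0.03 for all probe sets, and it was 0.12 with title run as a block, 0.14 without run 4 and 0.05 in ethanol rats, where 14 were higher and 5 lower. Hspa5, which encodes BiP, the main Hsp70 of this compartment, read 12.95, 13.12, 13.14, 13.29 and 13.15 at 6 h, against 12.63, 12.96 and 13.02 as lowest, median and highest at 1 h. All but 1 array at 6 h lay above every array at 1 h. Its change was 0.24 ± 0.07 in water rats (limma unadjusted p = 5.16e-04, adjusted p = 0.789) and 0.14 ± 0.05 in ethanol rats, and it rose by 0.19 with both treatments averaged (limma adjusted p = 0.0417). Sdf2l1, a cofactor of BiP, gave 0.47 ± 0.15 with no overlap between the hours (10.11 ± 0.20 at 6 h and 9.64 ± 0.12 at 1 h, SD, n = 5 and 6), Pdia6, a disulfide isomerase, gave 0.20 ± 0.08, and Calr, a lectin chaperone, gave 0.21 ± 0.10. Array 13 had the lowest mean of this list among the 6 h arrays, 10.82, and array 17 the highest, 11.13.

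Of 19 other heat shock and cold-inducible genes 17 were higher and 2 lower, with a median of 0.12 in water rats and 0.02 in ethanol rats. In water rats 0 passed. At an unadjusted p under 0.05 in limma 2 were higher and 1 lower, beside 3.04% and 1.51% of all probe sets. The mitochondrial chaperonin gene Hspd1 gave 0.12 ± 0.06 and the cochaperone gene Bag3 0.41 ± 0.20, with 0.18 for Bag3 without run 4. Of 63 genes of oxidative phosphorylation 62 were higher and 1 lower in water rats, with 0 passing, 12 at an unadjusted p under 0.05 and a median of 0.14, which was 0.10 with title run as a block. Over all probe sets tested 57.7% were higher, and 3.04% were higher at an unadjusted p under 0.05. In ethanol rats 24 were higher and 39 lower, with a median of -0.01. Uqcrfs1, the iron-sulfur subunit of complex III, gave 0.30 ± 0.10 and the ATP synthase subunit gene Atp5mc3 0.14 ± 0.05.

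Of 26 immediate early genes tested 7 were higher and 19 lower at 6 h. Over all probe sets 57.7% were higher. Among the 26 genes 0 passed and 4 had an unadjusted p under 0.05, all lower, beside 1.51% of all probe sets. The median was -0.19, with -0.05 under the title run block, -0.10 without run 4 and -0.08 in ethanol rats. Arc, a regulator of synaptic receptors, gave -0.89 ± 0.37, Egr4 -0.82 ± 0.40 and Fosb -0.97 ± 0.48, and under the block these were -0.51, -0.38 and -0.46, and without run 4 they were -0.46, -0.32 and -0.27. Genes induced by glucocorticoids, the adrenal stress hormones that follow a daily rhythm of their own, were 9 higher and 10 lower of 19, with a median of -0.12 in water rats, -0.03 without run 4, and -0.26 in ethanol rats, where 17 were lower. In water rats 1 was higher and 1 lower at an unadjusted p under 0.05, beside 3.04% and 1.51% of all probe sets. The higher one was the sulfotransferase gene Sult1a1, at 0.32 ± 0.15 (0.36 without run 4). The kinase gene Sgk1 gave -0.47 ± 0.25 in water rats and -0.73 ± 0.18 in ethanol rats, and Fkbp5, a cochaperone of the glucocorticoid receptor, gave -0.38 ± 0.18 and -0.26 ± 0.13 in the same order. Without run 4 they were -0.29 and -0.14 in water rats. None of these 3 passed in either treatment.

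Of 22 neuropeptide and receptor genes of the amygdala 20 were lower at 6 h and 2 higher, while 57.7% of all probe sets were higher. Among the 22 genes 0 passed. In limma 4 had an unadjusted p under 0.05, all lower, beside 1.51% of all probe sets. The median of -0.42 was -0.14 with title run as a block, -0.04 without run 4 and 0.06 in ethanol rats. The somatostatin gene Sst gave -0.74 ± 0.37 and -0.11 without run 4, the neurotensin gene Nts -0.63 ± 0.31 and -0.25, and the neuropeptide Y receptor gene Npy1r -0.59 ± 0.29 and -0.04. The mean of the list was lowest on arrays 16 and 17, 8.71 and 8.82, while the other 6 h arrays ran from 9.25 to 9.90 and the 1 h arrays from 9.24 to 9.99. In bulk tissue, fewer cells of a type and less RNA per cell cannot be told apart.

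Cell type markers also differed between arrays. Of 16 marker genes of central amygdala and lateral striatal neurons on the array 15 were tested and Dlk1 was below the filter, and Penk, Pdyn, Sst, Nts, Cartpt, Crh and Tac1 among them are in the neuropeptide list too. Their mean was 11.10, 10.46, 11.13, 10.23 and 9.86 on arrays 2, 6, 13, 16 and 17 at 6 h, against 10.38 to 11.10 at 1 h. Markers of striatal medium spiny neurons ranged from 8.95 to 10.68 at 6 h, against 9.22 to 10.32 at 1 h. The 11 oligodendrocyte genes were all higher at 6 h in water rats, with a median of 0.38, and all lower in ethanol rats, with a median of -0.14. Their mean was 11.27 on array 13 and between 12.27 and 12.63 on the other 6 h arrays, against 11.37 to 12.45 at 1 h, and the median was 0.09 with title run as a block and 0.18 without run 4. Of the markers of cortical and basolateral glutamatergic neurons 5 of 10 were below the filter, the vesicular transporter Slc17a7 among them, as were 10 of 13 for choroid plexus. The transthyretin gene Ttr, the main choroid plexus transcript, was highest on array 17. The part of cell makeup in the changes was not tested.

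Among 12 brain vessel genes 11 were higher at 6 h and 1 lower. Over all probe sets 57.7% were higher. Of the 12 genes 0 passed and 4 had an unadjusted p under 0.05, all higher, beside 3.04% of all probe sets. The median of the list was 0.21, with 0.16 under the title run block and 0.16 without run 4. Beside Flt1, the transporter gene Slco1a4 gave 0.28 ± 0.12, the angiopoietin receptor gene Tek 0.29 ± 0.12 and the pericyte gene Pdgfrb 0.21 ± 0.08. Without run 4 these were 0.18, 0.17 and 0.23. The vessel genes Kdr, Pecam1 and Tie1 gave 0.10 ± 0.14, 0.17 ± 0.24 and 0.01 ± 0.19. In ethanol rats 7 were higher and 5 lower, with a median of 0.03.

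**Figure D4:**
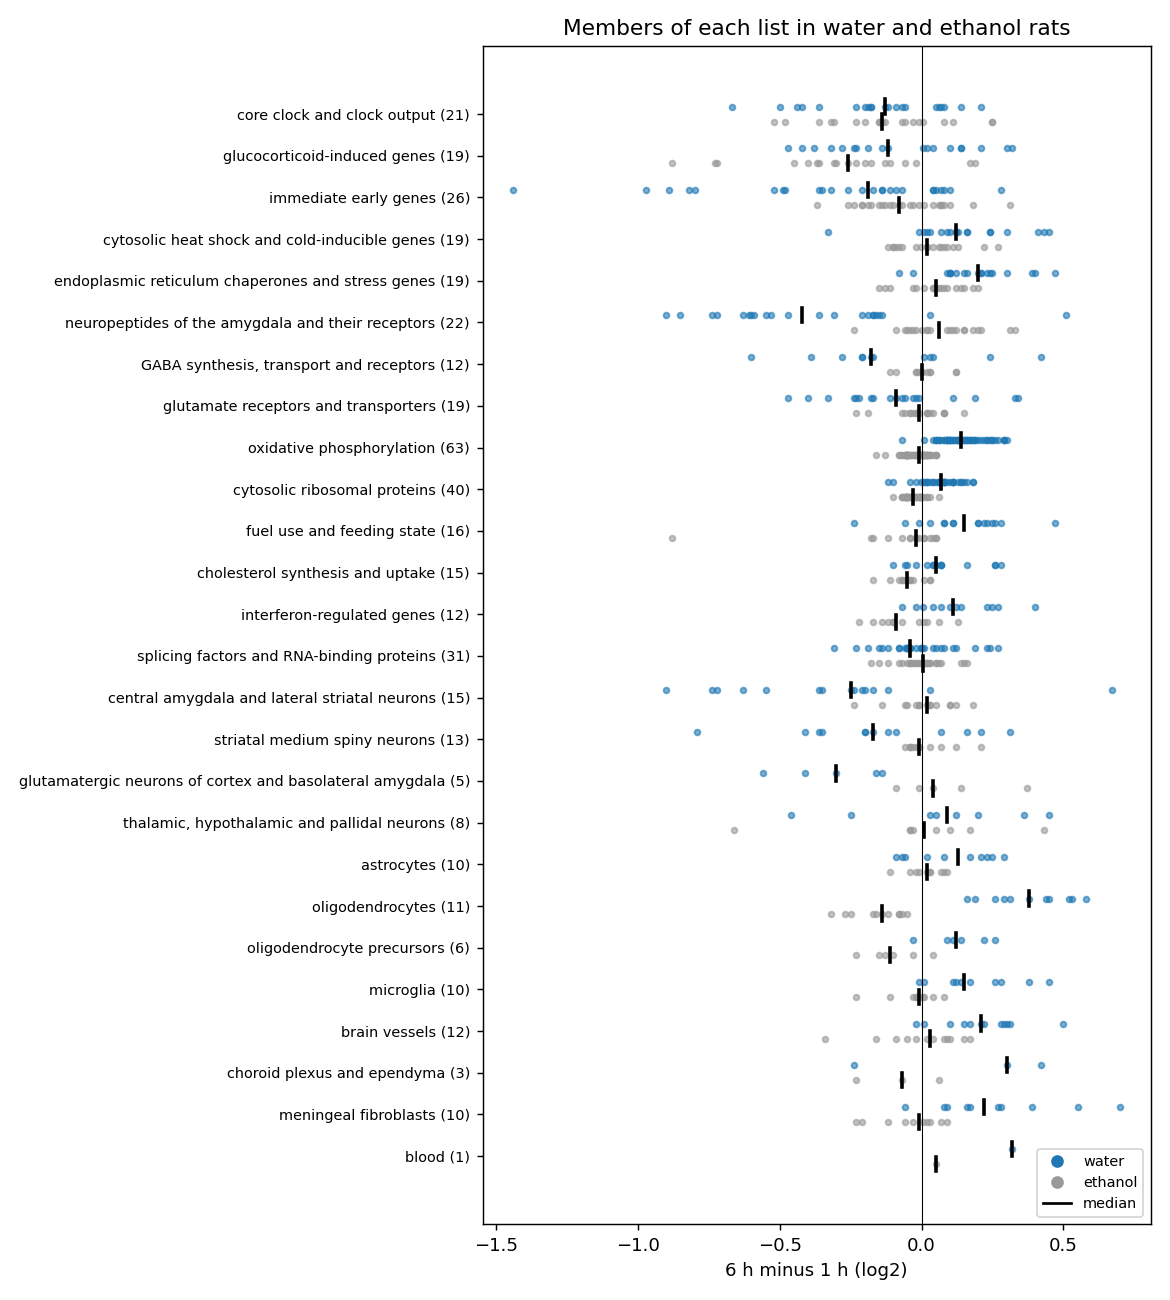
Change between 6 h and 1 h in log2 units (x axis) of each tested member of 26 lists (y axis, number tested in brackets), with water rats in blue above ethanol rats in grey and a bar at each median. The clock list sits at -0.13 in water rats and -0.14 in ethanol rats, while oligodendrocytes sit at 0.38 and -0.14.

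**Figure D5:**
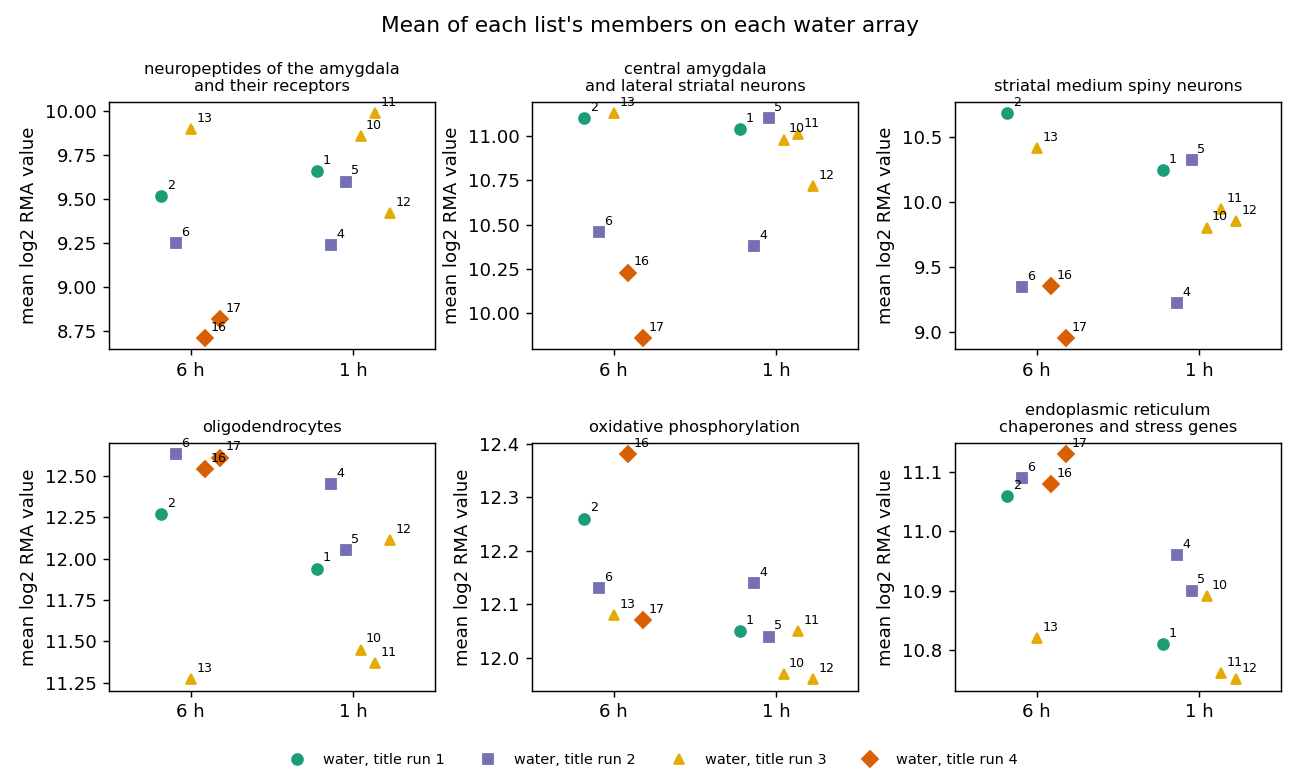
Mean log2 value of a list's members (y axis) on each water array at 6 h and 1 h (x axis), labelled by title number and shaped by title run. Arrays 16 and 17 are lowest for neuropeptides, at 8.71 and 8.82, and array 13 is lowest for oligodendrocytes, at 11.27.

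In the nucleus accumbens shell of water rats no probe set passed either (0 of 18625 in limma, percent called 0, 782 at an unadjusted p under 0.05). Nr1d1 gave -0.20 ± 0.11 there, Per2 -0.12, Nr1d2 -0.18, Klhdc7a 0.38, Flt1 0.16 and Hspa5 0.15, and the clock list had a median of -0.11. The endoplasmic reticulum list had a median of -0.04 and oxidative phosphorylation -0.04. All probe sets tested in the shell had a median change of -0.02 in water rats, and 43.6% of them were higher at 6 h. Of the genes named for the CeA, 7 of 12 higher ones and 7 of the 11 lower ones tested in the shell had the same sign there. Among those of opposite sign, Psmb10 gave -0.27 in the shell, Metrnl -0.19, Fbxw11 -0.19 and Lrch2 0.43. The labels do not say whether the regions came from the same rats, and the difference between the regions was not tested.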

How the data were processed

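RNA from the CeA and the nucleus accumbens shell of P rats was measured on Affymetrix arrays. Per the labels' protocols, extraction used Trizol and then an RNeasy kit, and labelling took 25 ng through 2 cycles. The deposited log2 values were made with RMA, per the submitters' processing notes. Its version was not given in the sources used here. Of 31042 probe sets that are no controls, 20826 carried 1 symbol, 436 several and 9780 none, and probe sets with a mean above the 40th percentile were tested (18625, above 6.96 in the CeA and 7.09 in the shell). The limma package 3.58.1 in R 4.3.3 fitted 6 group means per region with a variance trend, and Benjamini-Hochberg adjusted p under 0.05 passed. The fit was tested on simulated data.

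The genes and lists were chosen with earlier results of these data known. The text names the 12 smallest p-values in each direction in water rats, since none passed, all clock genes, the ethanol calls, the 6 smallest for treatment by time, and list members by smallest p. A list used the probe set with the highest mean of each gene. The number of arrays limits the precision. Alternatives were other filters, repeated quantile normalization, array weights, Gapdh integrity as a covariate, blocks for title run and title number, fewer arrays, and each array left out. The fit averaging treatments and the block with run 4 left out were added after seeing the data.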

Additional observations from a re-analysis of the deposited data

Results flagged for a closer look

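Among 202 sets of values, each named probe set at 6 h and at 1 h in water rats, 13 (6.44%) held an array far from the rest of its group by Dixon's ratio, where chance gives about 1 in 20. Array 13, the 6 h array of title run 3, was high for Nr1d2 at 12.59 (nearest 12.40), and low for the oligodendrocyte genes Mag at 9.83 (nearest 11.39) and Olig1 at 12.30 (nearest 13.20). It was also low for Uqcrfs1 at 11.44 (nearest 11.71) and for the ribosomal gene Rpl7a at 13.54 (nearest 13.67). Array 16 of run 4 was low for Lrch2 at 7.85 (nearest 8.52) and high for Sil1, a nucleotide exchange factor of BiP, at 8.75 (nearest 8.32). Array 17 of run 4 was high for Ttr at 8.53 (nearest 7.40). At 1 h, array 1 was high for Dbp at 10.74 (nearest 9.99) and for Calr at 11.08 (nearest 10.77). Array 4 was high for the nuclear receptor gene Rora at 8.10 (nearest 7.66), array 12 low for Nfil3 at 8.25 (nearest 8.48) and array 5 high for Kdm8 at 9.34 (nearest 9.24).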

How the results depend on the processing

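In water rats 0 probe sets passed under every setting run, the block on title run, both filters, repeated quantile normalization, array weights, the integrity covariate, the fits of water arrays alone and each of the 11 arrays left out included. For treatment by time 0 passed under the same settings except the fits of water arrays alone, which do not give it. For the accumbens shell only the absence of a filter, adjusted p under 0.10 and each array left out were run, with 0 passing in each, and leaving out an array gave 365 to 1269 probe sets at an unadjusted p under 0.05. Array weights gave 1698 such probe sets in the water rats of the CeA. With the title number as a random replicate block, whose estimated correlation was 0.0733, 0 passed in water rats, 6 in ethanol rats and 0 for treatment by time. Title numbers name the arrays and give no pairing across hours. In the CeA this block ties a water array to the ethanol array of the same number, in some cases at another hour. The labels give no link between such arrays, so this fit cannot check for replicates. The 10 calls with both treatments averaged were 11 with title run as a block. The 6 calls in ethanol rats were 12 with title run as a block, 11 with array weights, 3 without run 4 and 2 with the filter at the 60th percentile. Of 47 named probe sets none came to pass in water rats, and 39 kept their direction throughout, the 24 leading genes included. The sign turned for 8 clock genes, whose changes in the fit of 6 group means lay between -0.20 (Hlf) and 0.08 (Csnk1d). With title run as a block Clock was 0.05 and Bmal1 0.08. Without run 4 Clock was 0.14, Bmal1 0.06, Tef 0.05, Hlf 0.04, Usp2 0.03 and Csnk1d -0.0033, and with the block and run 4 left out Clock was 0.11, Bmal1 0.04, Tef 0.03, Hlf 0.03 and Usp2 0.01. Clock was 0.01 with array weights and 0.05 without array 16. Bhlhe41 was -0.0035 after repeated normalization, Bmal1 0.0037 without array 10 and 0.01 without array 17, and Csnk1e -0.01 without array 11 and -0.05 without array 17. Over the fits with 1 array left out, Clock ran from -0.13 to 0.05, Bmal1 from -0.15 to 0.01 and Csnk1e from -0.05 to 0.24. The cause was not tested. With 5 and 6 arrays and a median standard error of 0.13, small changes could not be called.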

Other observations

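Ribosomal protein genes were higher at 6 h for 35 of 40 in water rats, beside 57.7% of all probe sets tested, and lower for 34 of 40 in ethanol rats. The median change was 0.07 in water rats and -0.03 in ethanol rats, and in water rats it was 0.02 both with title run as a block and without run 4. In water rats 0 passed in limma and 3 had an unadjusted p under 0.05, all higher, beside 3.04% of all probe sets. Cholesterol synthesis genes had a median of 0.05 in water rats, -0.01 without run 4, and -0.05 in ethanol rats. Mvd, an enzyme of that pathway, gave 0.26 ± 0.12 in water rats, 0.09 without run 4, and -0.17 ± 0.08 in ethanol rats. Interferon-regulated genes had a median of 0.11 in water rats and -0.09 in ethanol rats, and in water rats it was 0.01 with title run as a block and -0.04 without run 4. The immunoproteasome gene Psmb8 gave 0.40 ± 0.20 in water rats, 0.18 with the block and 0.07 without run 4. Fuel use genes had a median of 0.15 in water rats, 0.08 with the block and 0.10 without run 4, and the neuronal glucose transporter gene Slc2a3 gave 0.26 ± 0.08 with no overlap between the hours and 0.25 without run 4.

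GABA genes had a median of -0.18 in water rats, -0.0044 with the block and 0.06 without run 4, and glutamate receptor and transporter genes -0.09, -0.0023 and 0.06 in the same order. Abat, which breaks down GABA, gave 0.42 ± 0.14 and 0.24 without run 4. Other Abat probe sets gave 0.05 ± 0.15 and 0.14 ± 0.15, with -0.11 and 0.01 without run 4. Splicing factors had a median of -0.04, which was 0.02 with the block and -0.02 without run 4. Medium spiny neuron markers had a median of -0.17, which was 0.01 with the block and 0.28 without run 4, and markers of central amygdala neurons -0.25, -0.11 and 0.04 in the same order. Microglial markers had a median of 0.15 and 0.02 without run 4, with the receptor gene Cx3cr1 at 0.26 ± 0.10 and 0.29 without run 4. Without run 4 the median was 0.08 for astrocyte markers (0.13 with all arrays) and 0.13 for meningeal fibroblast markers (0.22). It turned to -0.01 for oligodendrocyte precursors (0.12), to -0.06 for choroid plexus over 3 genes (0.30) and to -0.08 for thalamic, hypothalamic and pallidal neurons (0.09). None of these genes passed.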
